A study of Mus musculus with 16 samples.

Results

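The results below describe a 2 by 2 cross of 2 genetic changes in the embryonic mouse heart, loss of the Notch transcription factor RBPJ and loss of the Wnt inhibitor Axin2. The arrays titled DKO, hetDKO, KO and control form the cross. They are 14 of the 16 arrays of the series, 4 DKO, 3 hetDKO, 3 KO and 4 control. DKO hearts were MesP1-cre with both Rbpj copies floxed (RBPJ lox/lox) and Axin2-/-. Hearts of the hetDKO group were MesP1-cre with 1 floxed Rbpj copy (RBPJ lox/+) and Axin2-/-. KO hearts were MesP1-cre with both Rbpj copies floxed and no labelled change in Axin2. Control hearts are labelled wild type, and the labels do not state whether any carried Cre. All embryos were on a mixed C57/BL6;129Ola background and were taken at E9.25, with 22 to 24 somites. RNA came from whole hearts, so fewer cells of a type and less RNA per cell cannot be told apart. Because the hetDKO hearts carry Cre and 1 floxed Rbpj copy beside the Axin2 loss, those changes cannot be told apart in that group.

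RBPJ is the DNA-binding protein through which cleaved Notch receptors switch on their target genes. MesP1-cre acts in early mesoderm that gives rise to most heart muscle and endocardium, as well as to other mesodermal cells. Axin2 is part of the complex that marks β-catenin for destruction, and it is itself a Wnt target, so its loss is expected to relax a brake on Wnt signalling. In the heart tube Notch acts in the endocardium during trabeculation and cushion formation, and Wnt signalling acts in progenitor growth and in the valves.

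For each probe the Rbpj effect was measured once without Axin2, as DKO minus hetDKO, and once with it, as KO minus control. The interaction is the first minus the second, on a log2 scale. It is 0 where the 2 changes add and nothing else differs between the 2 pairs of groups. The pairs are not matched, since hetDKO hearts carry Cre and a floxed Rbpj copy and control hearts are labelled wild type. An effect of Cre or of the number of floxed Rbpj copies would enter the interaction and cannot be told apart from it. The 2 Rbpj effects share no array, but they share beadchips and normalisation. A signal below is the log2 of a normalised probe intensity, and signals of different probes are not set against each other. A probe was called where limma's moderated test across the 14058 kept probes gave an adjusted p under 0.05 after Benjamini-Hochberg adjustment. Nothing in the labels ties an array to its own embryo, so a p-value here reflects the spread among arrays, part of which may be technical.

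The median raw intensity of the 16 arrays ranged from 171 to 212, and 12360 to 13196 probes per array were above background. Neither Rbpj nor Axin2 is the name of a kept probe, and both were not analysed here. Heart muscle markers were bright on every array of the cross, with signals of 13.74 to 15.42 for Myl7, the atrial myosin light chain, and 14.06 to 15.34 for Actc1, cardiac actin. No kept probe is named Tnnt2, Kdr, Ptprc or Csf1r. KO replicate 2 stood apart in the mean signal of 4 leukocyte genes, at 10.42 against 8.06 and 7.97 on the other KO arrays. Values without it are given beside some, but not all, of the results in which it stood out.

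Over the probes called for the average Rbpj effect, the slope of 1 effect on the other was near 1. That set joins rises and falls, and the slope within each is given below. The average of the 2 Rbpj effects was called for 3018 probes, 21.5% of those tested, of which 1414 were higher and 1604 lower in the Rbpj-deleted hearts. Over those 3018 probes the slope of the Axin2-null effect on the Axin2-present effect was 0.98 (Deming regression, equal errors, standard error 0.149 from leaving out each array in turn), against 0.90 over all 14058 probes. Within beadchip 1 the slope over the probes called there was 0.992. Within beadchip 2, which holds 1 KO and 1 hetDKO array, it was 0.762 over 85 called probes and 0.386 over all probes, where r was 0.275. The effects had the same sign at 3015 of the 3018 probes and at 71.0% of all probes. The first share was largely set by choosing probes on the mean of the 2 effects. Pearson's r across probes was 0.903 over the called probes, a value raised by choosing probes on the mean of the 2 effects, and 0.582 over all probes. Probes are not independent replicates, so these values describe the arrays and carry no p.

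The interaction was called for 1 probe, 0.00711% of those tested, which is named Mrpl10. At an unadjusted p under 0.05 there were 709 probes, 5.04% of all tested, and 149 of the 3018 called for the average Rbpj effect, 4.94%. Over those 3018 probes the root mean square of the interaction was 0.290 on the log2 scale, beside a root mean square standard error of 0.263. The root mean square of the average effect was 0.641. The error of the mean of the 2 effects is uncorrelated with that of their difference, so choosing on the mean alone would not choose on the interaction. The call also used each probe's spread, which the standard error of the interaction shares, so it favoured probes with a small spread. Over all kept probes the root mean square of the interaction was 0.368, beside a root mean square standard error of 0.320. For 2547 of the 3018 probes, 84.4%, the 95% interval of the interaction lay between -1 and 1, that is within a factor of 2. For the rest of the 3018 the arrays leave a difference of that size possible. Among all kept probes the interval lay within a factor of 2 at 77.4%.

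**Figure D1:**
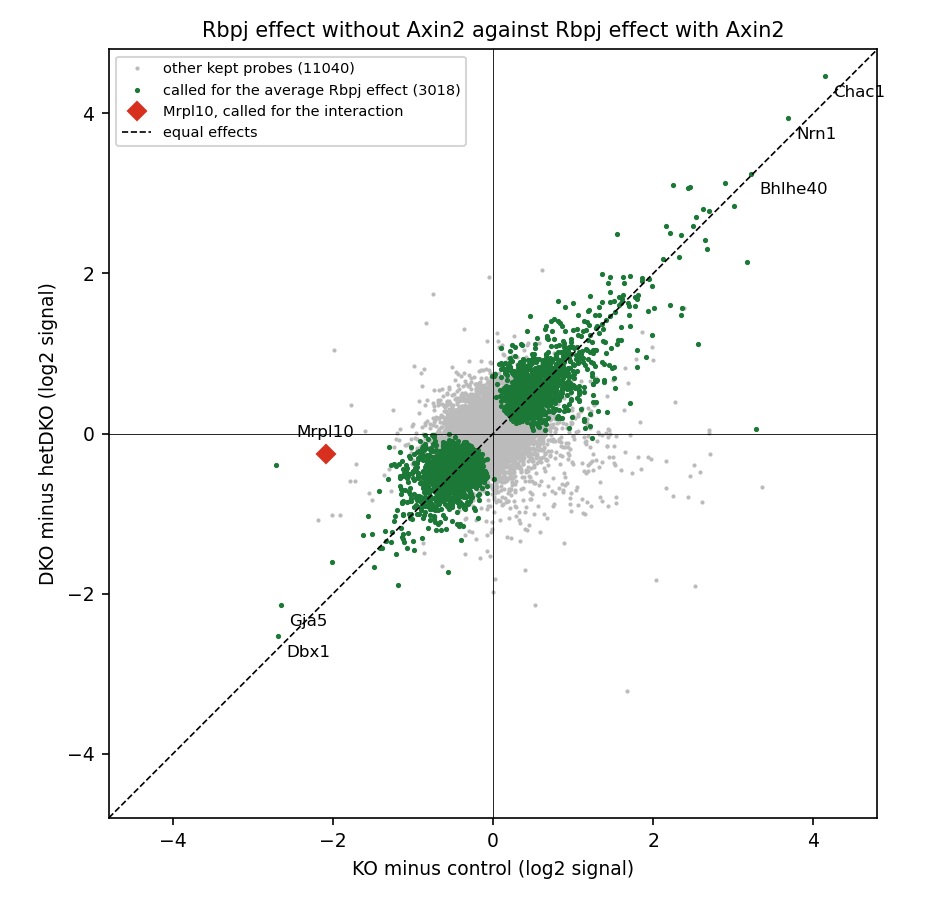
Rbpj effect with Axin2 present (KO minus control, x axis) against Rbpj effect without Axin2 (DKO minus hetDKO, y axis), both as log2 differences, 1 point per kept probe, with the 3018 probes called for the average Rbpj effect coloured and the line of equal effects drawn. The coloured points lie along the line with a slope of 0.98. The probe of Mrpl10, marked by a diamond, lies off it at -2.09 on the x axis and -0.25 on the y axis.

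The medians of the 2 effects were close in each direction. The 1414 probes called higher had a median Axin2-null effect of 0.54 and a median Axin2-present effect of 0.49, and the 1604 called lower had medians of -0.44 and -0.45. Probe by probe the sizes followed each other less closely among the falls, with a slope of 0.780 against 0.957 among the rises. The Axin2-null effect was the larger of the 2 at 1593 of the 3018 probes, 52.8%. Where the average rise was 1 or more, at 146 probes, the medians were 1.35 and 1.39, and where the average fall was 1 or more, at 39 probes, they were -1.26 and -1.2. Over the 39 strong falls, which span a narrow range, the slope was 0.375 and r was 0.139. Their root mean square interaction was 0.582 beside a standard error of 0.415. Of the 39, 3 had an interaction of 1 or more in size, among them probes of Mrpl10 and Lsm12 at 1.84 and 2.32, described below. These enter the slope and the root mean square, and values without them were not computed. Precision was lower at the strong rises and falls. The interval lay within a factor of 2 at 69 of the 146 and at 13 of the 39. Taken one at a time, DKO minus hetDKO called 1105 probes (7.86% of those tested) and KO minus control called 1065 (7.58%). They shared 515 calls, 46.6% of the Axin2-null list and 48.4% of the Axin2-present list, and 514 of these had the same sign. Of the 590 probes called only in DKO minus hetDKO and the 550 called only in KO minus control, 108 and 113 had an unadjusted interaction p under 0.05. Of these Mrpl10 alone was called for the interaction. Over all probes the share at that p was 5.04%. Choosing probes called in only 1 of the effects favours a difference between the effects, so these counts are no separate result.

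The strongest rise was that of Chac1, an enzyme that breaks down glutathione. Its signals were 11.22, 10.90, 12.75 and 11.85 in DKO hearts, 7.60, 7.30 and 6.74 in hetDKO hearts, 11.60, 10.64 and 11.90 in KO hearts and 7.05, 7.53, 6.78 and 7.56 in control hearts. All 7 Rbpj-deleted arrays lay above all 7 others. The genes named for the average Rbpj effect were required to separate in this way, so for them non-overlap is no separate result. Of all kept probes, 3.66% had every deleted array above every other array and 3.78% had every one below. The log2 rise was 4.47 without Axin2 and 4.15 with it, for an interaction of 0.32 with a 95% interval of -1.07 to 1.72, so these arrays leave a factor of 2 between the rises possible. Nrn1, which encodes the neurite protein neuritin, rose by 3.94 without Axin2 and by 3.68 with it on the log2 scale. It was not above background on any hetDKO array, so its rise without Axin2 was at least 11.7-fold.

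Bhlhe40, a transcriptional repressor induced by low oxygen, showed the closest match among the 10 strongest rises. Its signals were 11.38, 11.74, 12.24 and 11.83 in DKO hearts, 8.88, 8.66 and 8.11 in hetDKO hearts, 11.86, 11.56 and 11.93 in KO hearts and 8.31, 8.40, 8.82 and 8.75 in control hearts. The Rbpj-deleted arrays were all above the others, and the DKO range contained the KO range. The log2 rises of 3.25 without Axin2 and 3.22 with it gave an interaction of 0.03 with an interval of -0.68 to 0.74. Stc2, a secreted glycoprotein, had signals of 10.95, 10.62, 11.57 and 10.65 in DKO hearts, 7.71, 8.16 and 7.59 in hetDKO hearts, 11.16, 10.36 and 11.44 in KO hearts and 8.29, 8.14, 7.75 and 8.15 in control hearts, with no overlap between deleted and non-deleted arrays. Its interaction was 0.23, with an interval of -0.63 to 1.09.

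Ddit4, an inhibitor of the growth kinase complex mTORC1, had signals of 13.25, 13.23, 14.01 and 13.43 in DKO hearts, 10.67, 10.99 and 11.01 in hetDKO hearts, 13.50, 13.15 and 13.96 in KO hearts and 11.23, 10.89, 11.21 and 10.82 in control hearts. The deleted arrays again all lay above the others, and the interaction was 0.09 with an interval of -0.59 to 0.78. Car9, a membrane carbonic anhydrase, was 8.36, 8.76, 9.31 and 8.69 in DKO hearts, 6.15, 6.05 and 6 in hetDKO hearts, 8.78, 8.07 and 9.06 in KO hearts and 6.19, 6.34, 5.82 and 6.06 in control hearts. Car9 was not above background on any hetDKO or control array, so its rises were at least 4.65-fold without Axin2 and at least 4.55-fold with it. These bounds are mean differences from the dimmest probe above background on each array. Other Car9 probes had interactions of 0.24 and 0.11. The first of these rose by 1.88 without Axin2 and by 1.64 with it on the log2 scale. The second differed by only 0.62 and 0.50, and neither difference was called (adjusted p = 0.0703 and 0.133).

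Of the other 4 of the 10 strongest rises, 3 had interactions of -0.17, 0.18 and -0.23. Ndrg1, a stress-responsive growth suppressor, rose by 2.84 and 3.01, Ier3, an immediate early survival gene, by 2.80 and 2.62, and Cox4i2, an isoform of a cytochrome c oxidase subunit that is used in low oxygen, by 2.42 and 2.65, each on the log2 scale with the Axin2-null value first. Vldlr, a lipoprotein receptor, rose by 3.08 without Axin2 and 2.46 with it. Its 3 probes gave interactions of 0.62, 0.85 and 0.64, all with the larger rise without Axin2 and the second with an unadjusted p of 0.0156 and an adjusted p of 0.938.

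**Figure D2:**
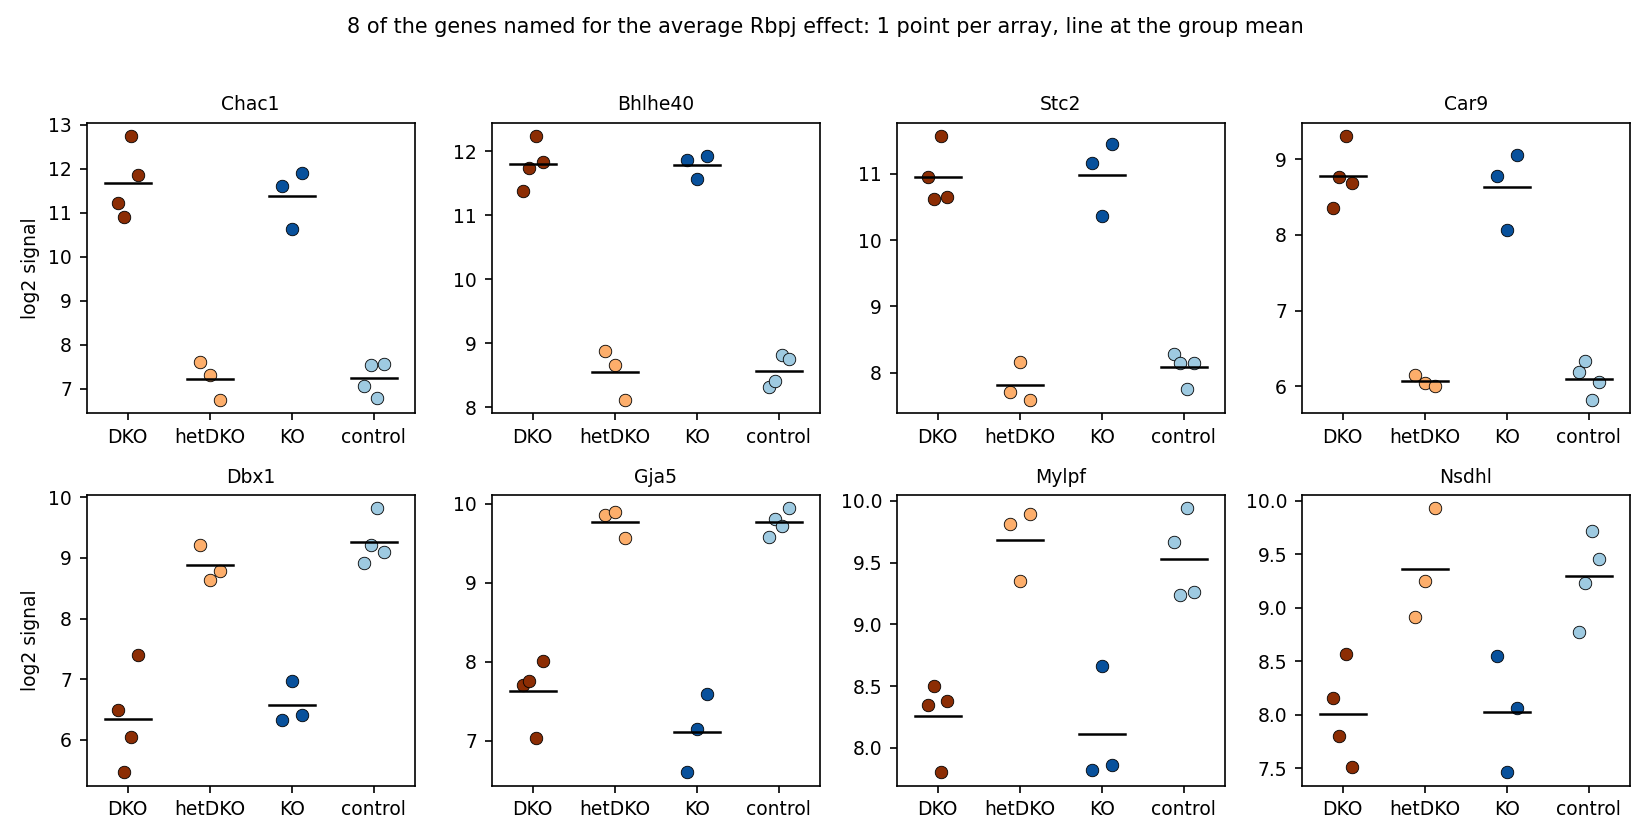
Signal (log2 normalised intensity, y axis) of 8 genes by group, 1 point per array, with the DKO group left of hetDKO and KO left of control. The genes were chosen so that every Rbpj-deleted array lies on 1 side of every array that is not deleted for Rbpj. Of the 8 genes, Gja5 has steps that differ most between the pairs, at -2.14 without Axin2 and -2.65 with it.

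Cells short of oxygen stabilise the factor HIF, which binds a short core in the promoters of its targets and turns on genes of glucose use, pH control, vessel growth and matrix modification. The list of 25 such hypoxia-induced genes had 21 measured members, and all 21 rose for the average Rbpj effect, where 10.1% of all probes did. The gene lists were chosen with earlier results of these data known, which may have raised such counts here and below. The hypoxia list rose by a median of 1.68 in DKO minus hetDKO and by 1.61 in KO minus control on the log2 scale, and the medians over all probes were -0.01 and -0.02. In DKO minus hetDKO 19 of the 21 were called higher, against 4.08% of all probes, and in KO minus control 20 were, against 3.61%. The mean signal of the list was 10.74 to 11.35 on DKO arrays, 9.13 to 9.30 on hetDKO arrays, 10.74 to 11.22 on KO arrays and 9.10 to 9.27 on control arrays, so the DKO and KO ranges nearly coincided and lay clear of the other groups.

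The interaction of the hypoxia-induced genes had a median of 0.03 and ranged from -0.77 to 0.31. Its 95% interval lay within a factor of 2 for 13 of the 21, and for 77.4% of all probes. Egln3, an oxygen-sensing hydroxylase that marks HIF for destruction, rose by 2.21 without Axin2 and 2.32 with it. Mxi1, a MYC antagonist, was the only member with an unadjusted p under 0.05, at -0.52 (unadjusted p = 0.0494, adjusted p = 0.938). Higd1a, a mitochondrial stress protein, had the most negative interaction, -0.77, from differences of 0.48 and 1.25. Without KO replicate 2 the number called for the average effect was 20 of 21 and the median interaction was -0.11. Within beadchip 1 the median interaction was 0.01 and within beadchip 2 it was 0.12.

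Promoters of 3 of these genes are shown because they are among the 10 strongest rises described above, each as a window of 300 bases across the annotated start, from RefSeq (GRCm38.p6), on the strand of the gene. Capitals mark the hypoxia response core, ACGTG or GCGTG, read on either strand. Car9 is at chr4:43506776-43507075 on the plus strand with 1 match, Ddit4 at chr10:59951721-59952020 on the minus strand with 2, and Stc2 at chr11:31370012-31370311 on the minus strand with 2.
Car9: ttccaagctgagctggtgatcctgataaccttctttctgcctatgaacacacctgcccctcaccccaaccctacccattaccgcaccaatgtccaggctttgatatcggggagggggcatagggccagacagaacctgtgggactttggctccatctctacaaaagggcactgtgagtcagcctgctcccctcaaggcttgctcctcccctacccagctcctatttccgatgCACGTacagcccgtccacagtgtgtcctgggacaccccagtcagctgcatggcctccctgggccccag
Ddit4: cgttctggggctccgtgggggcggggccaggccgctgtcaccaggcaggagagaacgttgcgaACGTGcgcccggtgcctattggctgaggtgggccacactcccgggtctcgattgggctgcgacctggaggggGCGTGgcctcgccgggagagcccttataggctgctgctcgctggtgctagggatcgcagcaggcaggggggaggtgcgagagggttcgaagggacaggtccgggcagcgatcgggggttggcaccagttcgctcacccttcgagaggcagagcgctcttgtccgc
Stc2: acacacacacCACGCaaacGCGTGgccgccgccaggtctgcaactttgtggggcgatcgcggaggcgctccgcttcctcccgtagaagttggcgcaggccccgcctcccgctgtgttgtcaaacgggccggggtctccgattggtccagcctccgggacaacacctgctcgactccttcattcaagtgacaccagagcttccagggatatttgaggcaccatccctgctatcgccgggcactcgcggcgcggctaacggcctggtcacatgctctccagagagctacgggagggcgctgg
Of the 16 measured hypoxia-induced genes with such a window, 15 held the core in at least 1 window, 93.8%, and 43.8% of all 32851 windows did. Several of these genes have more than 1 window, which gives a gene more chances than a single window has. An RBPJ core (TGGGAA, either strand) was found in 4 of the 16 and in 25.6% of all windows. A match is a run of letters and not a site of binding.

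**Figure D3:**
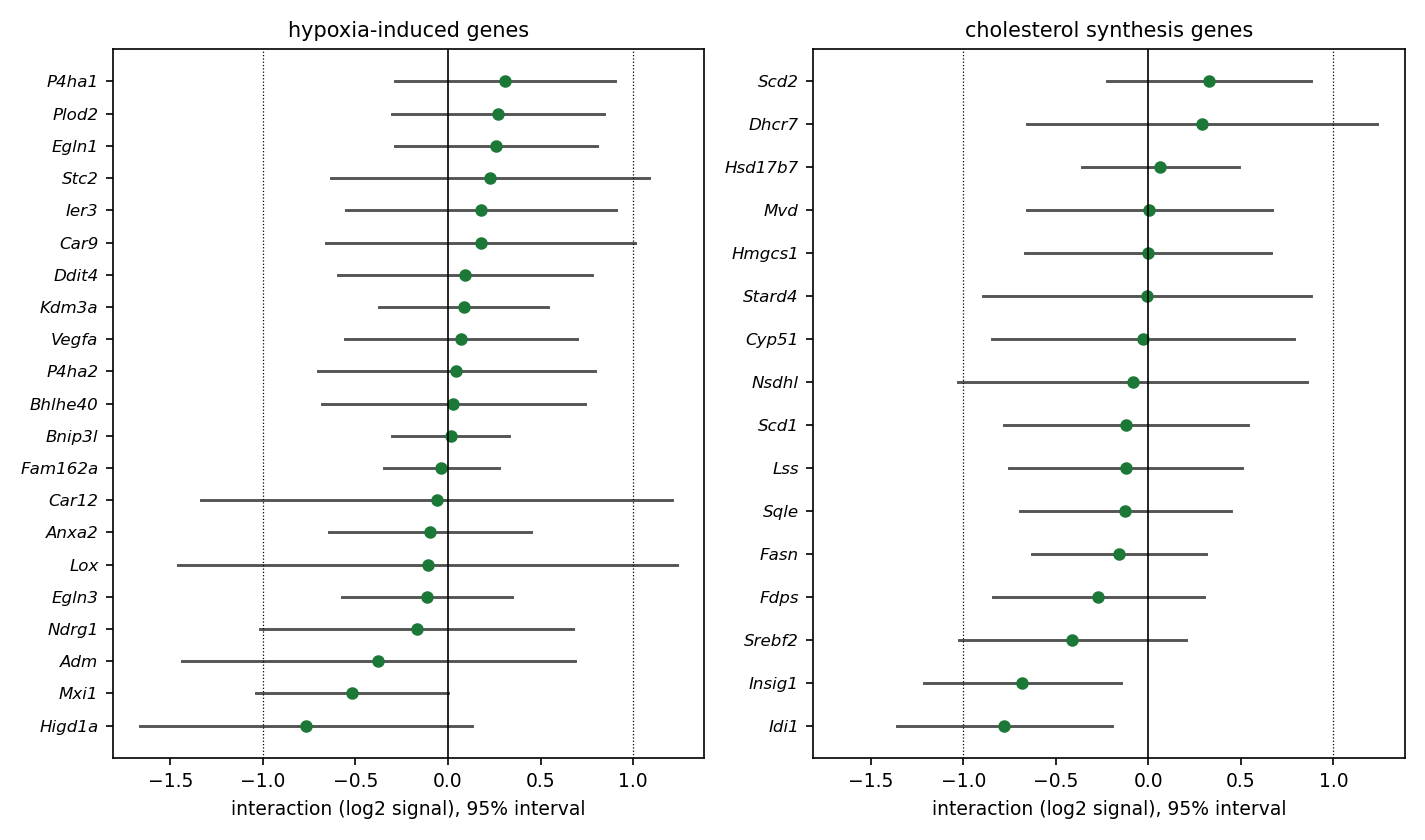
Interaction (DKO minus hetDKO, minus KO minus control, log2, x axis) with its 95% interval for each measured hypoxia-induced gene (21) and cholesterol synthesis gene (16), with dotted lines at -1 and 1. The hypoxia-induced genes scatter around a median of 0.03, and in the cholesterol list Idi1 and Insig1 lie left of 0 with intervals that do not reach it.

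Genes of sugar use and of amino acid shortage moved in the same way in both backgrounds. Among glycolysis enzymes, 13 of 22 rose and 1 fell for the average Rbpj effect, where 10.1% of all probes rose and 11.4% fell, with medians of 0.52 without Axin2 and 0.42 with it. Aldoc, a brain-type aldolase, rose by 1.94 and 1.86, Pdk1, the kinase that closes pyruvate dehydrogenase, by 1.39 and 1.17, and Aldoa, the muscle aldolase, by 1.11 and 0.83, Axin2-null value first. The interaction was above 0 for 18 of the 22, with a median of 0.16, and none was called. The interaction of smallest p, for Pfkp, a phosphofructokinase, was 0.63 with an interval of -0.17 to 1.44. Of 21 genes of the response to amino acid shortage, 13 rose, against 10.1% of all probes, and 1, the serine synthesis enzyme Phgdh, fell. The list's medians were 0.75 and 0.93 and its median interaction was -0.05. Atf3, a stress-induced repressor, rose by 0.93 and 0.73. Only 4 of the 21 intervals lay within a factor of 2, against 77.4% of all probes, so this list constrains the interaction less than the hypoxia list does. Its median interaction changed sign with the setting, at -0.32 without KO replicate 2, 0.13 with the beadchip as a block and 0.19 within beadchip 1.

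Immediate early genes, which respond to growth signals within minutes, rose in 8 of 13 members, against 10.1% of all probes, and fell in 1, Klf2, a flow-responsive endothelial factor. Fos rose by 1.64 and 1.69, Egr1 by 1.57 and 2.01 and Junb by 0.89 and 1.25, with the Axin2-null value first, and the median interaction was -0.07. Endoplasmic reticulum chaperones went the other way, with 4 of 14 lower and 1 higher, where 11.4% of all probes were lower and 10.1% higher. Dnajc3, a chaperone partner, fell by 0.82 and 0.89 on the log2 scale and Creld2 fell on average, with differences of -0.58 and -0.52. Calr, the calcium-binding chaperone calreticulin, had an interaction of 1.33 with an unadjusted p of 0.0463 and an adjusted p of 0.938, and Pdia4, a disulfide isomerase, one of 0.52 (unadjusted p = 0.012, adjusted p = 0.938).

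The strongest fall was that of Dbx1, a homeobox factor of neural progenitors. Its signals were 6.49, 5.46, 6.05 and 7.40 in DKO hearts, 9.21, 8.63 and 8.79 in hetDKO hearts, 6.33, 6.97 and 6.41 in KO hearts and 8.92, 9.22, 9.82 and 9.09 in control hearts, without overlap between deleted and non-deleted arrays. It fell by 2.53 without Axin2 and by 2.69 with it, with an interaction of 0.16 (interval -0.92 to 1.24). It was above background on 1 of 4 DKO and 1 of 3 KO arrays, so both falls end near the floor and their sizes and likeness are not well measured. Gja5, the gap junction protein connexin 40 of trabecular and atrial muscle and arterial endothelium, was 7.70, 7.75, 7.04 and 8.01 in DKO hearts, 9.85, 9.89 and 9.57 in hetDKO hearts, 6.60, 7.15 and 7.59 in KO hearts and 9.58, 9.81, 9.72 and 9.94 in control hearts. The DKO and KO ranges overlapped, and both lay below the other groups. Its interaction was 0.50 with an interval of -0.22 to 1.23, and its other probes gave -0.52 and 0.41, so the probes differ in sign. The probe at 0.41 fell by 1.61 without Axin2 and by 2.02 with it. The probe at -0.52 had differences of -0.59 and -0.07 and was not called for the average Rbpj effect (adjusted p = 0.102).

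Mylpf, the regulatory light chain of fast skeletal myosin, fell by 1.43 without Axin2 and by 1.41 with it, with an interaction of -0.02 (interval -0.85 to 0.82). Nearly equal values were also seen for Mov10l1, an RNA helicase of the germ line, at -1.34 in both, and for Hspb3, a small heat shock protein, at -1.43 and -1.39. Pik3r3, a regulatory subunit of phosphoinositide 3-kinase, fell by 1.67 and 1.49, Neurod4, a neuronal basic helix-loop-helix factor, by 1.26 and 1.51, and Dpysl4, of the dihydropyrimidinase-like family, by 1.22 and 1.35. A second Dpysl4 probe had an interaction of 0.33 and an Axin2-null effect of -0.06, so the fall rests on 1 of the 2 probes. Vgll2, a cofactor of TEAD factors, had effects of -1.26 and -1.63 on its first probe, which was above background on 2 of 4 DKO and 1 of 3 KO arrays, and its other probes had interactions of the other sign, -0.36 and -0.46. Of 12 genes of neural and pharyngeal epithelium, a list to which Dbx1 and Vgll2 belong, 4 fell and none rose. Among all probes 11.4% fell and 10.1% rose for the average Rbpj effect. Foxe1, a forkhead factor of the foregut, fell by 0.96 without Axin2 and by 1.2 with it.

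Cholesterol synthesis genes fell in both backgrounds, with equal medians. Of 16 measured genes 13 fell for the average Rbpj effect and none rose, where 11.4% of all probes fell, and the medians were -0.62 without Axin2 and -0.62 with it. The mean signal of the list was 9.85 to 10.23 on DKO arrays, 10.48 to 11 on hetDKO arrays, 9.92 to 10.21 on KO arrays and 10.33 to 10.89 on control arrays, without overlap between deleted and non-deleted groups. In DKO minus hetDKO 7 of the 16 were called lower, against 3.78% of all probes, and in KO minus control 5 were, against 3.97%. Nsdhl, which removes a methyl group from sterol precursors, fell by 1.36 without Axin2 and by 1.27 with it, and its other 3 probes gave interactions of -0.03, 0.03 and -0.33. Fdps, farnesyl diphosphate synthase, fell by 0.96 and 0.69. Without KO replicate 2, 12 of the 16 were called lower.

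Idi1 and Insig1 departed most from equal falls in that list, both with the larger difference without Axin2. Idi1, isopentenyl diphosphate isomerase, was 7.42, 7.14, 7.10 and 7.08 in DKO hearts, 8.26, 8.61 and 8.17 in hetDKO hearts, 7.69, 7.40 and 7.30 in KO hearts and 7.30, 8.02, 7.81 and 8.25 in control hearts. DKO and hetDKO arrays did not overlap, whereas KO and control arrays did. The interaction of Idi1 was -0.78 with an interval of -1.36 to -0.20 (unadjusted p = 0.012, adjusted p = 0.938). Insig1, the sterol sensor that holds back the SREBP factors, fell by 1.14 without Axin2 and had a difference of -0.45 with it, for an interaction of -0.68 (interval -1.21 to -0.15). Neither passed the test over all probes. The interaction was below 0 for 12 of the 16 genes, with a list median of -0.10.

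Cell cycle genes fell in 8 of 25 members and rose in 1, where 11.4% of all probes fell and 10.1% rose. Of the E-type cyclins that start DNA replication, Ccne2 fell by 0.89 without Axin2 and by 0.96 with it, and Ccne1 fell on average, with differences of -0.66 and -0.70. Rrm2, a ribonucleotide reductase subunit, fell by 0.92 without Axin2 and had a difference of -0.37 with it, for an interaction of -0.55 (unadjusted p = 0.0385, adjusted p = 0.938). The intervals of 23 of the 25 genes lay within a factor of 2, where those of 77.4% of all probes did. Housekeeping and p53 target lists had a share of calls at or below that of all probes. Among 21 cytosolic ribosomal protein genes the interaction ranged from -0.21 to 0.25 and all 21 intervals lay within a factor of 2, with 2 genes called higher and 1 lower for the average Rbpj effect. Of 29 respiratory chain genes 1 was called lower, Cycs, cytochrome c, and of 14 p53 targets 2 were called higher and 1 lower.

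The Notch lists had a share of calls near that of all probes. Of 15 Notch target genes 2 were called lower and 1 higher, where 11.4% of all probes were lower and 10.1% higher, and the medians were 0.06 without Axin2 and 0.01 with it. Nrarp, a feedback inhibitor that is among the most direct Notch targets, was 10.89, 11.01, 10.74 and 11.34 in DKO hearts, 11.59, 11.46 and 11.48 in hetDKO hearts, 11.26, 11.03 and 10.99 in KO hearts and 11.50, 11.33, 12.12 and 11.54 in control hearts. Its differences were -0.52 and -0.53, so the average fall was the same in both backgrounds, and DKO replicate 4 overlapped the lowest control array. Hes6, a relative of the Hes repressors, also fell on average, with differences of -0.57 and -0.40. Of 23 Notch pathway components 3 rose and 1 fell. Dtx3, of the deltex family, had differences of 0.59 and 0.25, and Rfng, which modifies Notch receptors with sugar, -0.30 and -0.72.

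The Wnt lists had interactions mostly above 0, none of them called. Of 16 Wnt target genes 12 had an interaction above 0, with a list median of 0.29 beside 0.01 over all probes, and of 29 Wnt pathway components 22 did, with a median of 0.27. The medians were 0.34 and 0.16 within beadchip 1 and 0.30 and 0.43 within beadchip 2. Genes of a list are not independent of each other, and no test of the list is given. Cd44, a hyaluronan receptor, was 8.51, 8.07, 8.16 and 8.51 in DKO hearts, 7.69, 7.24 and 7.78 in hetDKO hearts, 8.16, 8.17 and 8.16 in KO hearts and 8.14, 8.30, 7.63 and 8.63 in control hearts. Its hetDKO arrays lay below its DKO and KO arrays and overlapped 1 control array, for an interaction of 0.75 (unadjusted p = 0.0199, adjusted p = 0.938). Lef1, a transcription factor partner of β-catenin, had the same interaction of 0.75 from differences of 0.44 and -0.31 (unadjusted p = 0.0469, adjusted p = 0.938).

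Apc, a scaffold of the complex that also holds Axin2, was 8.97, 9.08, 8.83 and 9.15 in DKO hearts, 8.44, 8.77 and 8.51 in hetDKO hearts, 8.66, 8.53 and 8.87 in KO hearts and 8.97, 8.98, 8.67 and 9.11 in control hearts. DKO and control arrays overlapped, as did hetDKO and KO arrays, for an interaction of 0.68 (interval 0.28 to 1.08, unadjusted p = 0.00275, adjusted p = 0.938). Fzd7, a Wnt receptor, had differences of 0.90 without Axin2 and 0.33 with it, and an interaction of 0.57 (unadjusted p = 0.0252, adjusted p = 0.938). For the average Rbpj effect 2 of 16 Wnt targets rose, Sox9 and Sp5, and 1 fell, Nkd2, an inhibitor of the pathway. Among all probes 10.1% rose and 11.4% fell, so the counts of targets were near those shares. Porcn, the enzyme that adds the lipid to Wnt ligands, rose by 0.72 and 0.67. It was among 6 of 29 components that rose, while 1 fell.

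Lists of the heart's own cell types are given beside the shares of all probes called for the average Rbpj effect, 10.1% higher and 11.4% lower. Of 28 endothelial and endocardial genes 6 rose and none fell. Sox17, a factor of endothelial and early endocardial cells, was 9.74, 9.98, 9.56 and 9.81 in DKO hearts, 8.84, 8.79 and 8.57 in hetDKO hearts, 9.42, 9.85 and 9.76 in KO hearts and 8.34, 8.72, 8.19 and 8.48 in control hearts. Its groups with and without Rbpj deletion did not overlap, and it rose by 1.04 without Axin2 and by 1.24 with it. Its relative Sox7 rose by 0.95 without Axin2 and by 0.89 with it, and Sox18 rose on average, with differences of 0.51 and 0.59. Of 22 cushion mesenchyme genes 4 rose and 1 fell, and Vcan, the matrix proteoglycan versican, had an interaction of 1 with an unadjusted p of 0.0428 (adjusted p = 0.938), though it was not above background on any hetDKO array. Of 24 cardiac transcription factors 5 rose and 1, the muscle methyltransferase Smyd1, fell. Of 13 chamber and trabecular genes 3 fell, among them Gja5 and Pln, the calcium pump inhibitor phospholamban, and 1 rose. BMP ligands and targets rose in 3 of 13 members, with differences of 0.76 and 0.49 for Grem1, and of 14 second heart field genes 2 rose, among them the growth factor Fgf10 at 0.98 and 0.90, and 1 fell.

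Sarcomere genes fell in 4 of 25 members and rose in 1, near the shares of all probes (11.4% and 10.1%), and their interaction was above 0 for 20 of the 25. The medians were 0.08 without Axin2 and -0.37 with it. Myh7, the slow myosin heavy chain, had the smallest p of the list, with an interaction of 1.35 (unadjusted p = 0.0334, adjusted p = 0.938). The list's median interaction was 0.17, and it was 0.00 with the erythroid signal as a covariate and 0.36 without KO replicate 2. The part of red cell content in it was not tested further.

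**Figure D4:**
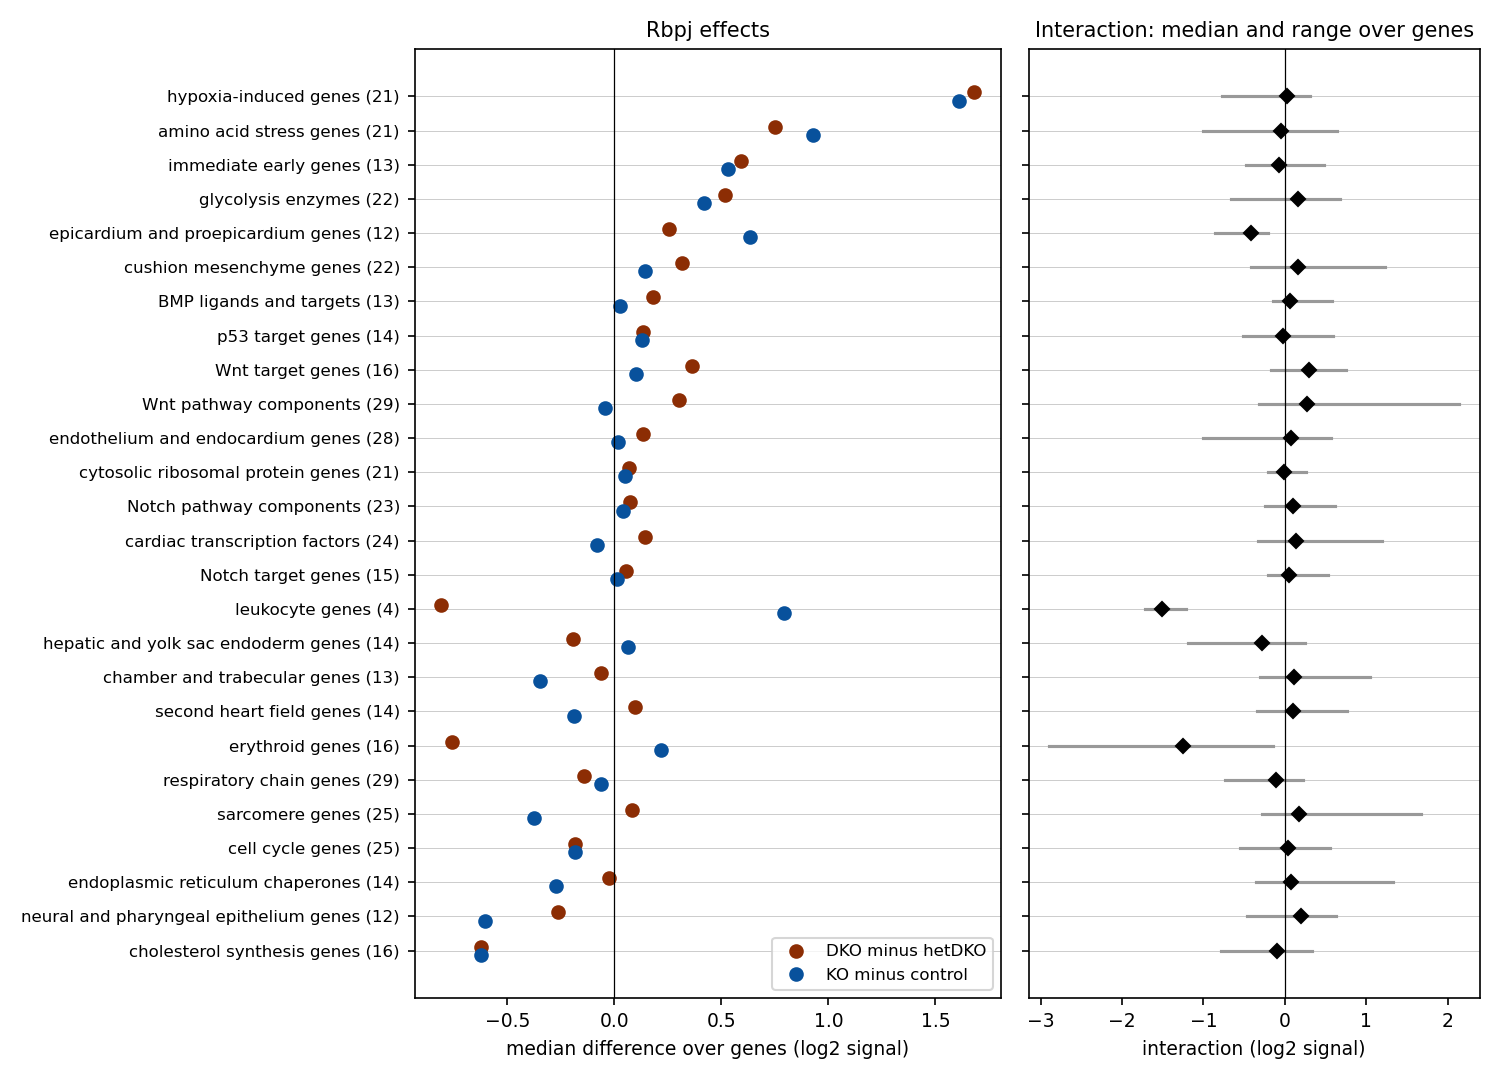
Median log2 Rbpj effect without Axin2 and with Axin2 for 26 gene lists (left panel) and the median and range of the interaction over the members of each list (right panel). The hypoxia-induced list has the highest medians in both backgrounds, and the leukocyte and erythroid lists have the lowest median interactions, -1.51 and -1.25.

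The one called departure from additivity was Mrpl10, which encodes a protein of the large mitochondrial ribosomal subunit and lies at chr11:97041582-97049213 (GRCm38.p6). Its called probe (ILMN_2822622) had signals of 12.26, 12.20, 12.19 and 12.22 in DKO hearts, 12.45, 12.45 and 12.51 in hetDKO hearts, 10.17, 10.25 and 10 in KO hearts and 12.46, 11.74, 12.48 and 12.24 in control hearts. The 3 KO arrays lay far below the rest, which spanned 11.74 to 12.51. The probe fell by 2.09 in KO minus control (adjusted p = 9.12e-06) and differed by -0.25 in DKO minus hetDKO (adjusted p = 0.383). The interaction was 1.84 with a standard error of 0.235, a 95% interval of 1.33 to 2.34 and an adjusted p of 0.0201. Mrpl10 was also 1 of 2 probes called in DKO minus KO (0.0142% of those tested), at 2.08, with an adjusted p of 5.06e-05. On the 2 arrays of the remaining group, titled DKOhet, which is deleted for Rbpj and Axin2+/-, the signals were 11.39 and 11.93, between the KO arrays and the DKO arrays.

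A second Mrpl10 probe did not follow the first. Its interaction was -0.38, with an unadjusted p of 0.0694, so the departure belongs to 1 of 2 probes. The call also depended on the arrays. Within beadchip 1 the interaction of the called probe was 2.13 (adjusted p = 0.0161) and within beadchip 2 it was 1.5 (adjusted p = 0.573), and with the beadchip as a block it was 1.88 (adjusted p = 0.0236). With the replicate number as a block it was 1.83 and lost the call (adjusted p = 0.147). When arrays were left out one at a time the size stayed between 1.75 and 2, and the call held only without control replicate 2, the array with the low control value. Without each other array the adjusted p lay between 0.0558 and 0.109.

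The second probe called in DKO minus KO is named Lsm12, an RNA-binding protein of the LSM family, at chr11:102162497-102186268. It was 9.60, 10.34, 9.40 and 10.30 in DKO hearts, 10.32, 10.54 and 10.05 in hetDKO hearts, 7.72, 6.59 and 6.36 in KO hearts and 10.24, 8.24, 10.09 and 9.85 in control hearts. The KO arrays were again the lowest, and control replicate 2 was again below the other control arrays. Its interaction was 2.32, but the interval of 1 to 3.65 was wide and the adjusted p was 0.938. The other 3 Lsm12 probes had interactions of 0.02, 0.25 and 0.03.

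**Figure D5:**
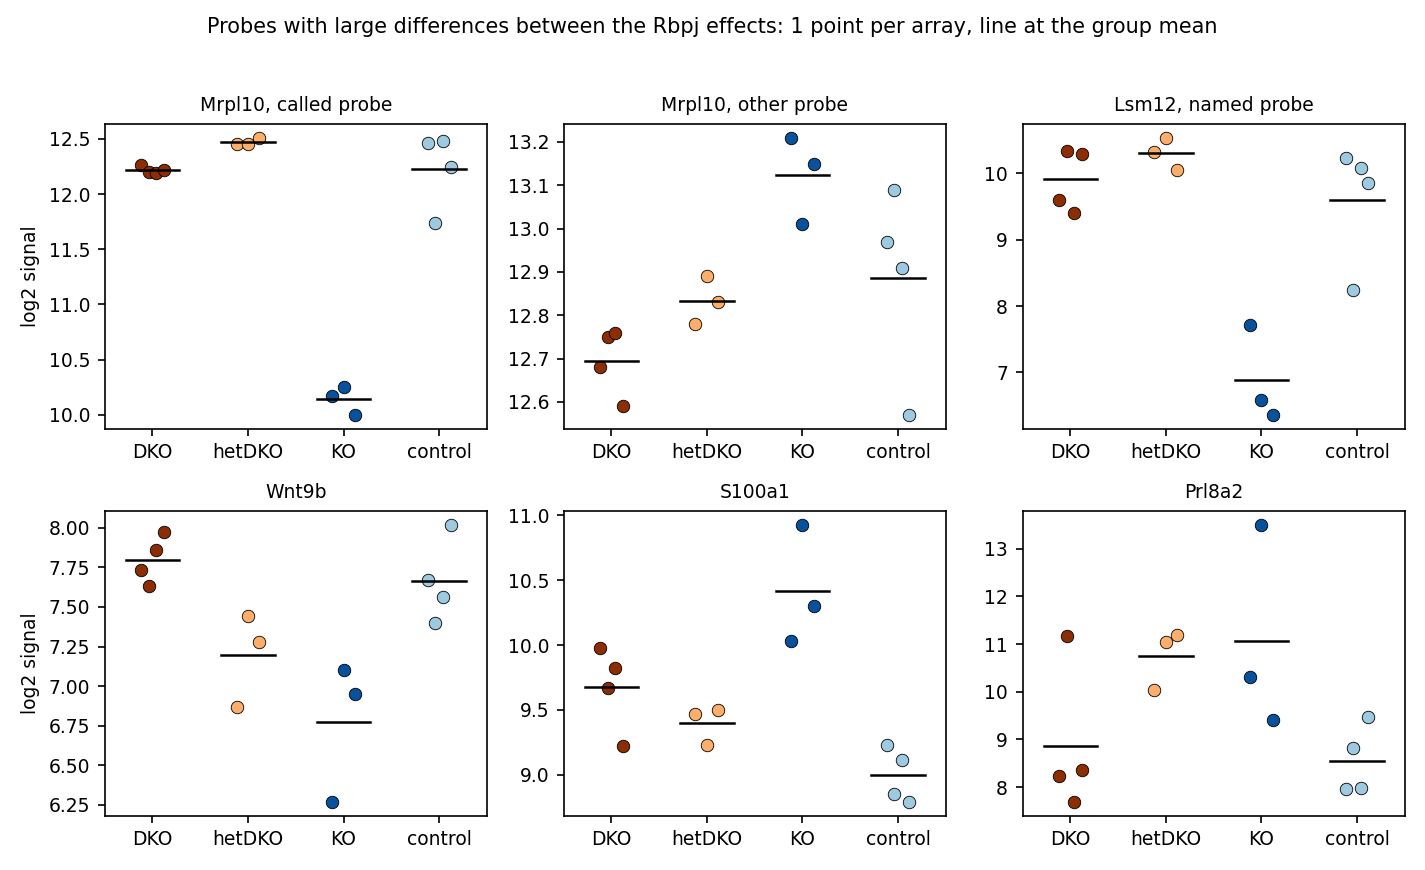
Signal (log2 normalised intensity, y axis) by group, 1 point per array, for the called probe of Mrpl10, its other probe, and probes of Lsm12, Wnt9b, S100a1 and Prl8a2. Of these the called Mrpl10 probe is the only one with an adjusted interaction p under 0.05, and its 3 KO arrays sit at 10 to 10.25, below every other array.

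The next probes by p for a positive interaction did not pass the test, with adjusted p between 0.858 and 0.938. Wnt9b, a Wnt ligand made by the endocardium and other epithelia, was 7.73, 7.63, 7.86 and 7.97 in DKO hearts, 6.87, 7.44 and 7.28 in hetDKO hearts, 6.27, 7.10 and 6.95 in KO hearts and 7.67, 7.40, 7.56 and 8.02 in control hearts. DKO and control arrays lay above every KO array, and the hetDKO arrays overlapped both KO and control arrays. Its interaction was 1.49, and a second probe gave 1.10 with the same sign. Csrnp1, a nuclear protein induced by Axin1 in human cells, was 9.33, 10.34, 10.34 and 9.64 in DKO hearts, 7.99, 8.16 and 9.44 in hetDKO hearts, 9.46, 9.52 and 8.08 in KO hearts and 9.87, 9.87, 9.99 and 9.70 in control hearts. The KO and hetDKO arrays were spread widely, and the interaction was 2.22 with an interval of 1.07 to 3.37.

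Srrm2, a splicing scaffold, had an interaction of 1.65 on a probe that was not above background on any hetDKO array, and its other probes gave 1.11, 0.18 and 0.16. The remaining positive ones were Gm7609 at 1.67, Fbxl12, an F-box protein, and Grk6, a receptor kinase, at 0.74 each, Nin, the centrosome protein ninein, at 0.71, and Ubtd2 at 0.69. Other probes of Fbxl12 gave 0.48, -0.27 and 0.17, those of Ubtd2 gave -0.33 and 0.01, and single further probes of Nin and Grk6 gave 0.27 and 0.12. Among the further probes of these 5 genes, the Fbxl12 probe at 0.48 was the only one with an unadjusted p under 0.05 (unadjusted p = 0.0387, adjusted p = 0.938).

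Among probes with a gene symbol and above background on all arrays of the higher groups, the 10 negative interactions of smallest p all had an adjusted p of 0.938. Gch1, the first enzyme of tetrahydrobiopterin synthesis, was 8.78, 8.57, 8.40 and 8.63 in DKO hearts, 9.12, 9.12 and 9.31 in hetDKO hearts, 9.57, 9.30 and 9.12 in KO hearts and 8.87, 8.59, 9.43 and 8.85 in control hearts. Its DKO arrays lay below its hetDKO arrays while KO and control overlapped, for an interaction of -0.98. S100a1, a calcium-binding protein of heart muscle, was 9.98, 9.67, 9.82 and 9.22 in DKO hearts, 9.47, 9.23 and 9.5 in hetDKO hearts, 10.03, 10.93 and 10.30 in KO hearts and 9.23, 8.85, 9.11 and 8.79 in control hearts. It rose by 1.42 in KO minus control (adjusted p = 0.00141), where the arrays did not overlap, and differed by 0.27 in DKO minus hetDKO (adjusted p = 0.462), where they did. The interaction was -1.15 with an interval of -1.78 to -0.52, and -0.90 without KO replicate 2, its highest array. The others were Rpl14, a ribosomal protein, at -1.84, Dennd1c at -1.19, Rnf20, a histone H2B ubiquitin ligase, at -0.98, Cbfa2t3, a blood corepressor, at -0.91, Gnat3 at -0.74, Rit1 at -0.66, Olfr1219 at -0.57 and Prl8a2 at -4.42.

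Iqub was the 1 probe called in both Rbpj effects with opposite signs, and it was chosen after its values were seen. It was 6.07, 6.05, 6.04 and 5.96 in DKO hearts, 6.64, 6.75 and 6.55 in hetDKO hearts, 6.26, 6.17 and 6.56 in KO hearts and 5.92, 5.82, 5.96 and 5.61 in control hearts. The signs oppose without overlap in either pair, and the interaction of -1.12 had the second smallest adjusted p, 0.301. The probe was above background on no DKO array, 2 of 3 hetDKO arrays, 1 of 3 KO arrays and no control array, so these values lie at the edge of detection. The 3 probes called for the average Rbpj effect whose 2 effects had opposite signs were those of Msrb1, a methionine sulfoxide reductase, at -0.58, Asph, an aspartyl hydroxylase, at 0.74, and Apobr, a lipoprotein receptor of macrophages, at -1.29.

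Of the 3018 probes called for the average Rbpj effect, 14 had an interaction of 1 or more in size. Besides Mrpl10, Lsm12, S100a1 and Apobr these included Lgals3, the lectin galectin 3, at -3.22, Il4, the cytokine interleukin 4, at -1.44, Cdk5rap1, a tRNA-modifying enzyme, at -1.11, and Aqp8, a water channel, at -1.09, all chosen after their values were seen. Lgals3 differed by 3.28 in KO minus control and by 0.06 in DKO minus hetDKO, with KO arrays at 10.09, 12.91 and 9.10, so KO replicate 2 was far above the others. Without that array its interaction was -2.11 and its difference in KO minus control 2.18 (adjusted p = 0.0398). Il4 was 7.81, 5.6, 6.67 and 5.51 in DKO hearts, 5.26, 5.24 and 5.34 in hetDKO hearts, 8.38, 7.62 and 7.62 in KO hearts and 5.35, 5.22, 5.51 and 5.16 in control hearts. It was above background on 2 of 4 DKO arrays, 3 of 3 KO arrays and no array of either other group. None of the 14 other than Mrpl10 passed the test for the interaction.

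The erythroid and leukocyte lists had the lowest median interactions of the lists, and single arrays stood out in them. The 16 erythroid genes all had interactions below 0, with a median of -1.25, and none was called for any Rbpj effect. Their mean signal was 11.66, 10.25, 11.09 and 10.68 on DKO arrays, 11.94, 10.93 and 11.99 on hetDKO arrays, 12.65, 12.42 and 11.11 on KO arrays and 11.72, 10.88, 12.40 and 11.32 on control arrays, so every group overlapped another. The median interaction was -0.29 within beadchip 1, -1.72 within beadchip 2 and -0.87 without KO replicate 2. The 4 leukocyte genes had a median of -1.51, and -0.71 without KO replicate 2, while Ptprc and Csf1r, which define leukocytes, have no kept probe. Afp, a hepatic and yolk sac marker, had signals of 5.90 to 9.38 over the 14 arrays, and the list of 14 hepatic and yolk sac genes had a median interaction of -0.29 with 1 member, Rbp4, called higher for the average Rbpj effect.

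Across all probes 34 had an interaction of -2 or below and 6 of 2 or above, and KO replicate 2 was the highest of the 14 arrays at 18 of the 34. Without that array the counts were 20 and 6, without KO replicate 3 they were 82 and 10, and without hetDKO replicate 2 they were 59 and 9. Within beadchip 2 they were 138 and 37, and with no background correction 15 and 1. The genes named here from the 34 were picked after their values were seen, and no list of placental genes was made. They are 6 genes of the prolactin family (Prl8a2, Prl3d3, Prl2c4, Prl4a1, Prl2c3 and Prl2c1), the homeobox genes Rhox9 and Rhox6, the platelet genes Pf4, Ppbp and Gp5, and the red cell genes Hbb-bt, Hbb-b2, Alas2 and Kel. Prl8a2 was 8.23, 11.16, 7.69 and 8.35 in DKO hearts, 10.04, 11.04 and 11.20 in hetDKO hearts, 10.30, 13.51 and 9.41 in KO hearts and 7.95, 8.82, 7.98 and 9.46 in control hearts. Single arrays in 2 groups, DKO replicate 2 and KO replicate 2, stood far above their groups, and without KO replicate 2 the interaction was -3.2 and KO minus control 1.3. The part of tissue other than heart in these values was not tested.

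Epicardial and proepicardial genes departed in 1 direction. The interaction was below 0 for all 12 measured, with a median of -0.42, and none was called. Krt19, a keratin of epithelial cells, rose by 1.53 without Axin2 and by 1.93 with it. For the average Rbpj effect 5 of the 12 rose, where 10.1% of all probes did. Wt1, the epicardial factor, was 11.16, 10.92, 11.92 and 10.18 in DKO hearts, 10.53, 10.61 and 10.82 in hetDKO hearts, 11.03, 11.14 and 11.59 in KO hearts and 10.60, 9.67, 10.36 and 9.36 in control hearts. Its KO and control arrays did not overlap and its DKO and hetDKO arrays did, for an interaction of -0.86 with an interval of -1.90 to 0.18. The list's median was -0.02 within beadchip 1, with 6 of 12 above 0, and -0.72 within beadchip 2, so the negative median was seen within beadchip 2 and not within beadchip 1.

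The contrasts for Axin2 loss gave almost no calls on these arrays. In hetDKO hearts that loss comes with Cre and a floxed Rbpj copy. The average of hetDKO minus control and DKO minus KO called 1 probe, Mrpl10 (0.00711% of those tested), at 1.16 with an adjusted p of 0.00111, and 537 probes had an unadjusted p under 0.05, 3.82% of those tested. The comparison of hetDKO with control called 0 probes, with 545 at an unadjusted p under 0.05, 3.88% of those tested. In DKO minus KO, where Mrpl10 and Lsm12 were called, 706 had one, 5.02%. The average Axin2 effects computed within each beadchip had a Pearson's r of 0.061 across all probes, against 0.616 for the average Rbpj effects and 0.258 for the interactions, with no array shared between the beadchips. Sex was not balanced by the labels, and Xist, the RNA that silences 1 X chromosome in females, had an interaction of -0.83 with an interval of -5.30 to 3.65.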

How the data were processed

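RNA of whole hearts was hybridised to 16 arrays on 2 Illumina beadchips. Arrays were grouped by their labelled genotype. The deposited table holds probe intensities that the authors had not normalised and, for each, a detection p-value, per the file headers. BeadStudio is named in the submitters' processing notes, with its version not given in the sources used here. A probe was kept if its detection p was below 0.05 in 2 or more arrays (14058 of 25696, beside 2 rows naming no probe), of which 13238 have 1 gene symbol and 820 none in the platform annotation. Intensities were background-corrected (normexp from detection p-values, offset 16), quantile normalised and put on a log2 scale with limma 3.58.1 in R 4.3.3. A model with 1 mean per group over all 16 arrays gave every contrast, with Benjamini-Hochberg adjustment over all kept probes. The 2 arrays of the DKOhet group entered no contrast but shared the estimate of spread. Precision is limited by how many arrays there are. The scripts were tested on simulated data.

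Named genes were the 10 each way of smallest p for the interaction (called ones first) among probes with 1 symbol that were detected on all arrays of the higher groups, by which Iqub falls out, and the 10 largest called average Rbpj effects each way whose arrays did not overlap. In each of the 27 gene lists (615 genes), a gene was represented by its brightest kept probe, and up to 3 members by the average effect and 2 by the interaction were named. Members of lists named as the only one to fall or rise, the members shared with another rule, and genes said to be chosen after their values were seen lie outside that rule. The design and the lists were chosen with earlier results of these data known. Alternatives were other background corrections, offsets, normalisations, filters, the authors' deposited value table, beadchip and replicate number as blocks, single beadchips, array weights, covariates, and leaving out each array. Medians of the lists under these settings, and counts by size or by distance from Axin2, were added after the data were seen.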

Additional observations from a re-analysis of the deposited data

Results flagged for a closer look

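Single arrays stood far from the rest of their group for 5 of the named genes. Among the 80 groups of 4 arrays examined, chance alone gives about 1 in 20. For Gm7609 the signal was 7.82 on DKO replicate 3, against 8.68 to 8.85 on the other DKO arrays. For Fbxl12, control replicate 2 had 8, against 7.75 to 7.78 on the other control arrays. Control replicate 4 stood above its group for Ubtd2 (8.96, against 8.73 to 8.76), for Nrn1 (6.93, against 5.8 to 5.9) and for Hspb3 (9.31, against 8.97 to 9.02). Mrpl10 was the probe whose Rbpj effects with and without Axin2 differed by the test of the difference itself, at 1.84. The 2 arrays of the DKOhet group, outside the cross, were set beside the control arrays for the 10 genes named for the largest average rises. All 10 had both DKOhet arrays above every control array. Those genes were chosen partly for low control arrays, and the share of all probes that meet this condition was not counted.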

How the results depend on the processing

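The count of probes called for the interaction was 1, and it was 4 within beadchip 1, 14 within beadchip 2, 0 with a replicate block, 2 without the DKOhet arrays and 0 to 1 when arrays were left out one at a time. For KO minus control, beside 1065 probes, the counts were 253 and 95 within beadchips 1 and 2, 1858 with array weights and 591 to 1135 with an array left out. The count moved by over 1.5 times without control replicate 1 or 3 or without any KO array. For DKO minus hetDKO, beside 1105, they were 439 and 4 within beadchips 1 and 2, 1968 with array weights, 712 with the erythroid signal as a covariate and 449 to 1444 with an array left out, where any hetDKO array and DKO replicates 3 and 4 moved it by over 1.5 times. The average Rbpj effect called 85 within beadchip 2 and 2320 to 3256 with an array left out. The average Axin2 effect called 4 within beadchip 1, 6 within beadchip 2 and 1 to 2 with an array left out. The slope of the agreement was 0.762 within beadchip 2 and 0.922 to 1.06 with an array left out. A single beadchip holds fewer arrays, and for the other settings the cause was not tested. The 19 pairs of arrays with the same replicate number had correlations of deviations of -0.001 to 0.346 (median 0.175), against a median of 0.13 for other pairs on the same beadchip, so the numbers were not taken as pairs. With a replicate block the counts were 1238 for KO minus control, 1326 for DKO minus hetDKO, 3576 for the average Rbpj effect and 1 for the average Axin2 effect. Under these settings the interactions of the 20 genes named for them and the average Rbpj effects of the 20 named for those kept their signs.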

Other observations

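The called probe of Mrpl10 and that of Lsm12 lie on the chromosome of Axin2 (chr11:108917828-108950783, GRCm38.p6), and the window of 15 Mb on each side was chosen after the values were seen. Of 446 kept probes in it, 8 had an interaction with an unadjusted p under 0.01, 1.79%, and all 8 were positive, for the genes Lrrc59, Scrn2, Mrpl10, Atp6v0a1, Lsm12, Wnt9b (2 probes) and Map3k3. In the rest of that chromosome 5 of 705 probes did, 0.709%, with 3 positive, and on other chromosomes 81 of 12082, 0.67%, with 45 positive. Neighbouring probes share arrays, so no test is given. The count in the window was 11 within beadchip 1, of which 7 were positive, and 4 within beadchip 2, 0.897% of the window against 1.97% of the other probes. With a replicate block it was 3, 0.673% of the window against 1.11% of the other probes, and with the erythroid signal as a covariate it was 5. It was 3 to 12 with an array left out, at 5 or fewer without control replicate 4, hetDKO replicate 1 or 3, or DKO replicate 2 or 4 and at 12 without KO replicate 3.

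Some probes with large interactions read as present or absent on single arrays of a group. Zfp330, a zinc finger protein, had an interaction of -4.89 (adjusted p = 0.938) and signals of 12.17, 5.58, 12.22 and 5.26 in DKO hearts, 11.85, 12.64 and 11.60 in hetDKO hearts, 5.76, 12.67 and 11.99 in KO hearts and 5.18, 11.73, 5.16 and 11.79 in control hearts.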
